A study of Mus musculus with 36 samples.

Results

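Cathepsins are proteases of the lysosome, the acidic compartment in which a cell breaks down what it has taken up or no longer needs. Transcripts of 9 proteases of this kind and of 1 inhibitor were followed in the diaphragm, the main breathing muscle, of control and mdx mice between 7 and 112 days of age. The proteases were the cathepsins B, C, D, H, K, L, S and Z (Ctsb, Ctsc, Ctsd, Ctsh, Ctsk, Ctsl, Ctss and Ctsz) and napsin A (Napsa). The inhibitor was cystatin B (Cstb). The members were every probe set, a group of short probes for 1 transcript, whose annotation gave 1 of these 10 symbols. There were 15 such probe sets among the 12488 on the array, 4 for Ctsb, 3 for Ctsc and 1 for each of the other genes.

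The mdx mouse carries a mutation of the dystrophin gene Dmd in all of its cells and is used as a model of Duchenne muscular dystrophy. Total RNA of whole diaphragm was hybridised to 1-colour Affymetrix arrays at 7, 14, 23, 28, 56 and 112 days, with 3 control and 3 mdx arrays at each age, 36 arrays in 12 groups. The labels name no treatment, strain, sex, number of animals behind an array or pooling. The replicates may be separate animals or repeats of 1 RNA, and a p-value here reflects the scatter of the arrays alone. The dystrophin probe set ran from 330 to 1026 in signal on the control arrays and from 139 to 712 on the mdx arrays, a mean log2 difference over ages of -1.01 ± 0.12 (SE, adjusted p = 2.22e-07). The muscle creatine kinase gene Ckm lay between 13125 and 38468 on all arrays. Albumin, a liver transcript, was above 10000 on 9 arrays.

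Cysteine cathepsins and the aspartic proteases Ctsd and Napsa are made as inactive precursors and work at the low pH of the lysosome. Macrophages are rich in them, since they digest what they engulf and cut proteins for display on class II molecules of the major histocompatibility complex. In dystrophic muscle, fibres die and are replaced, and macrophages and fibroblasts gather around them. In whole tissue, more cells of a type and more RNA per cell cannot be told apart.

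Ctss was higher in mdx diaphragm from 14 days on, and more members passed the test at later ages. The first age of a call was 14 days for Ctss, 23 days for Ctsc, Ctsh, Cstb and Napsa, 28 days for Ctsz, 56 days for Ctsb and Ctsk and 112 days for Ctsl, while Ctsd was called at no age. A later first call does not show a later rise, since members not yet called could already lie above control. Values were compared as log2(signal + 32), with the adjusted p taken over all 9291 probe sets tested, and a rise or fall means an adjusted p under 0.05. All 15 members were tested. Napsa passed the filter on low signal only through 4 mdx arrays at 23 and 28 days, where it was high. It is included in the counts given for each age, the mean over ages and the F test, where its calls are no independent support. Of the Ctsc probe sets, 161251_f_at passed only through 3 mdx arrays. At 7 days 0 of 15 were higher in mdx, against 0.0431% of all tested probe sets, and 2 members had an unadjusted p under 0.05 against 992 of all tested. At 14 days 1 was higher, against 0.161%. At 23 days 5 were higher, against 2.66%, and at 28 days 6 were higher, against 2.42%. With a stricter filter at percentile 60, Napsa was not among the 12 members tested, and 4 and 5 were higher at these ages. Of all 6538 probe sets then tested, 315 and 267 were called in either direction. At 56 days 8 were higher, against 9.3%, and at 112 days 9 were higher, against 7.72%. No member was lower at any of the 6 ages, where 0.409%, 0.0323%, 0.764%, 0.538%, 7.35% and 4.55% of all tested probe sets were. The median log2 difference of the 15 was -0.09, 0.20, 0.65, 0.70, 0.71 and 0.93 at the successive ages, beside 0.04, 0.00, -0.01, -0.04, 0.15 and 0.02 for all tested probe sets. The 56-day median of all probe sets was 0.00 after quantile normalization, a shift of all probe sets at that age.

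**Figure D1:**
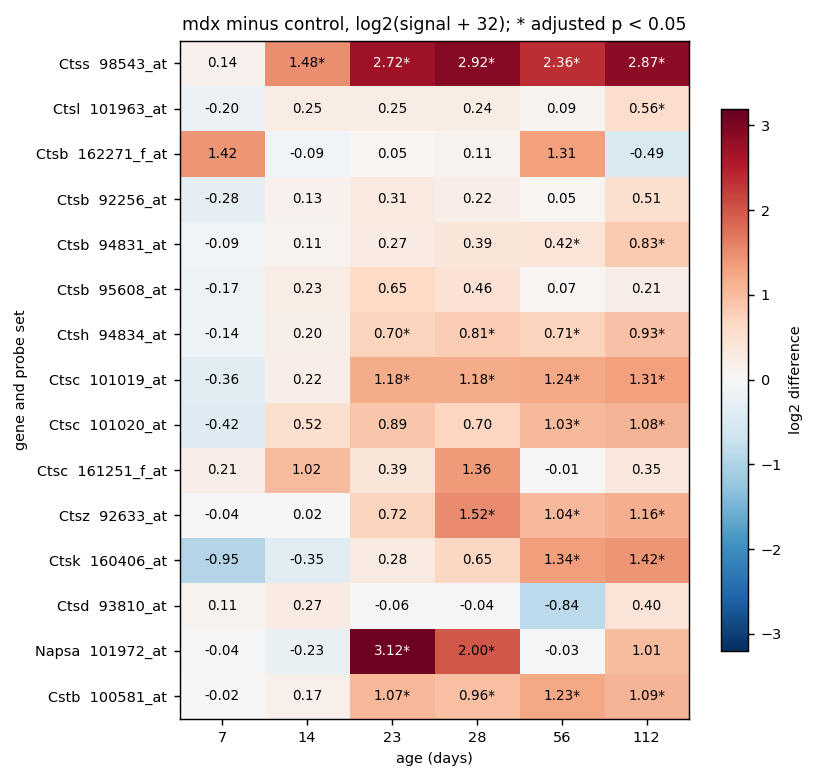
Difference between mdx and control diaphragm (log2 of signal + 32) for the 15 probe sets in rows and 6 ages in columns, red higher in mdx and blue lower, with an asterisk where the adjusted p was under 0.05. Asterisks number 0, 1, 5, 6, 8 and 9 from 7 to 112 days, and every one is on a higher value.

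The arrays separated completely for more members than passed the test at 14, 23, 28 and 112 days. All 3 mdx arrays lay above all 3 control arrays for 0 of 15 probe sets at 7 days, 3 at 14 days, 9 at 23 days, 12 at 28 days, 8 at 56 days and 11 at 112 days. Among all tested probe sets the shares were 8.22%, 6.87%, 12.6%, 11.5%, 24.2% and 13.7%. Averaged over the 6 ages, 10 of 15 probe sets and 9 of 10 genes were higher in mdx, against 10.4% of all probe sets. The gene without a rise was Ctsd. An F test found that the difference depended on age for 8 of 15, against 8.98% of all probe sets. These were Ctss, Ctsk, Cstb, Napsa, Ctsc (101019_at), Ctsz, Ctsh and Ctsb (94831_at). The 9 arrays of high albumin were also left out. This left 1 control array at 14 and at 112 days, assumed to vary like the other groups. Fewer members, and fewer of all probe sets, were then called at 56 and 112 days and by the F test.

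Cathepsin S, an endopeptidase that trims the invariant chain of class II molecules and stays active at neutral pH, had the largest mean difference over ages among the members, 2.08 ± 0.09 in log2 (SE, adjusted p = 4.03e-18). Control arrays read 1736, 1241 and 1591 at 7 days and mdx arrays 2164, 1437 and 1491, which overlapped. At 14 days control arrays read 1509, 1285 and 2071 and mdx arrays 4794, 5144 and 3674. Every mdx array at 14 days was above every control array of any age, whose highest was 3095. At 23 days the control arrays read 2382, 2087 and 1932 and the mdx arrays 21015, 11587 and 11738. At 28 days they read 2186, 2620 and 2392 against 15437, 15755 and 25439. The mdx arrays at both ages were far above the controls, with 1 array at each age well above the other two. At 56 days the values were 2746, 3095 and 2795 in control and 16070, 16031 and 12751 in mdx. At 112 days they were 2285, 2061 and 2610 in control and 15942, 18723 and 16604 in mdx. From 14 days on the genotypes did not overlap.

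The mean signal of Ctss in mdx was 1.12, 2.80, 6.93, 7.87, 5.19 and 7.37 times that in control from 7 to 112 days. In log2 the difference was 0.14 at 7 days, which did not pass (adjusted p = 0.854), and by 14 days it was 1.48 (adjusted p = 0.000299). It then was 2.72 at 23 days (adjusted p = 2.42e-10), 2.92 at 28 days (3.66e-11), 2.36 at 56 days (1.43e-09) and 2.87 at 112 days (1.35e-11), each with an SE of 0.21. In the order of the 12 group means, the 6 control groups and mdx at 7 days came below mdx at 14 days, and the 4 older mdx groups came above it. Mdx at 14 days overlapped neither neighbour in that order, while the 4 older mdx groups overlapped one another from each to the next.

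Ctss was the only member called in the interval from 7 to 14 days, where its difference grew by 1.34 ± 0.30 (adjusted p = 0.0423), against 0.215% of all probe sets that grew. That call was lost in 15 of the 36 fits that left out 1 array, with values from 1.19 to 1.52 and the highest adjusted p, 0.138, without mdx 14-day replicate 2. It was also lost without the albumin-rich arrays, where the value was larger (1.70, adjusted p = 0.112), after quantile normalization and with the actin ratio as a covariate. From 14 to 23 days the Ctss difference grew by 1.24 (adjusted p = 0.0527), which did not pass.

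**Figure D2:**
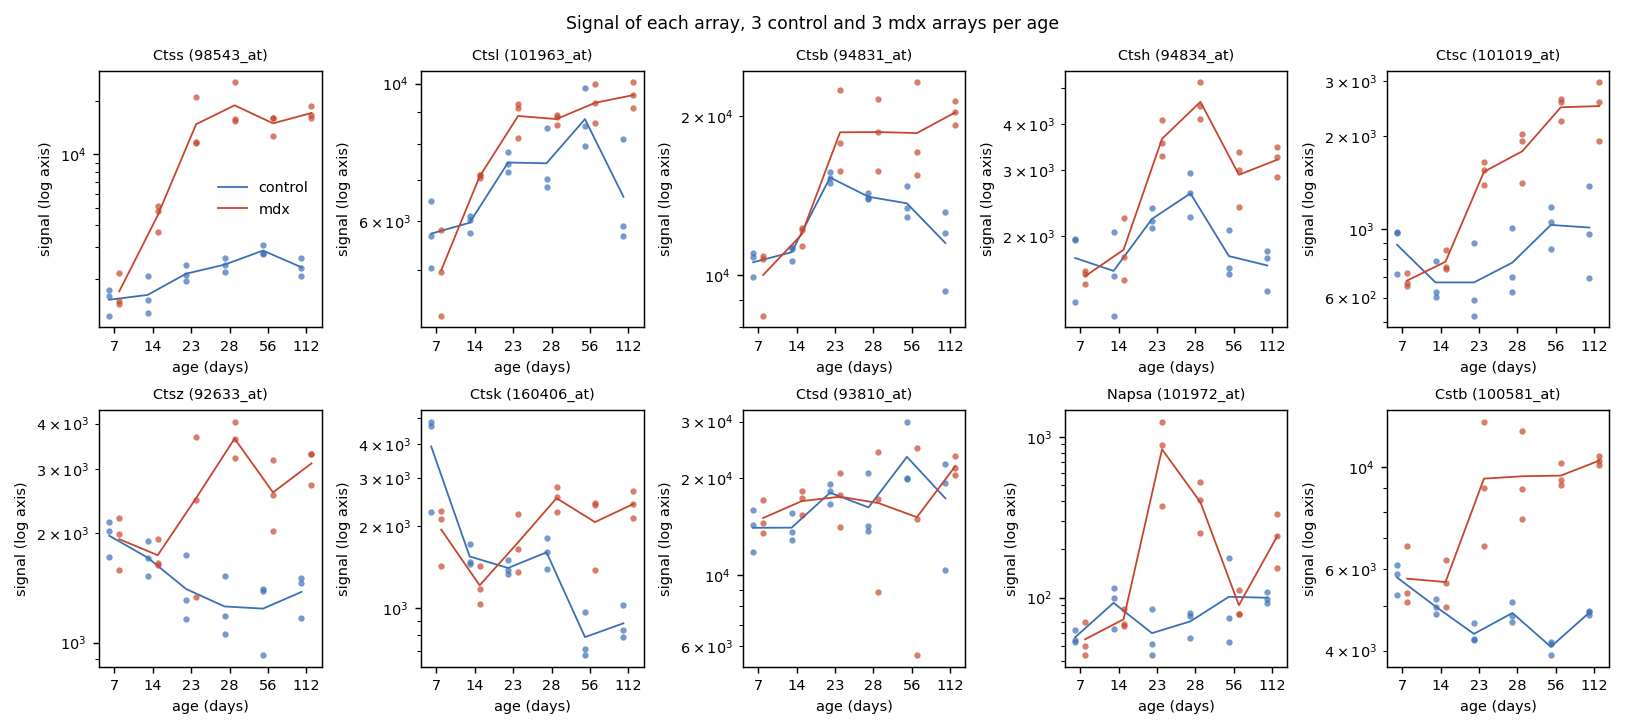
Signal on a log axis against age in days for the brightest probe set of each of the 10 genes, with 1 point per array, control in blue and mdx in red, and lines through the means of 3 arrays. Ctss separates from 14 days on, Ctsk is highest in control at 7 days and lowest in control at 56 and 112 days, and Ctsd overlaps at all 6 ages.

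Cathepsin L does the same work on the invariant chain in the thymus and degrades many proteins in lysosomes. Its difference was small, and 112 days was the only age at which it was called. At 112 days control arrays read 5676, 5892 and 8148 and mdx arrays 10051, 9576 and 9131, so that every mdx array was above every control array. The mean ratio was 1.46 and the log2 difference 0.56 ± 0.13 (SE, adjusted p = 0.00239). At 14, 23 and 28 days the arrays also separated completely, but the log2 differences of 0.25, 0.25 and 0.24 did not pass (adjusted p = 0.789, 0.385 and 0.438). At 56 days control arrays ran from 7925 to 9846 and mdx arrays from 8644 to 9979, which overlapped. The mean over ages was 0.20 (adjusted p = 0.006). Fitted on the 6 arrays of that age alone, the 112-day call was lost (adjusted p = 0.123).

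Cathepsin B cuts within proteins and also takes dipeptides from their ends. Its 4 probe sets did not move alike. The brightest, 94831_at, read 12013, 9358 and 13173 in control and 19281, 20385 and 21382 in mdx at 112 days, a ratio of means of 1.77 with no overlap. The log2 difference was 0.83 ± 0.14 (SE, adjusted p = 0.000129). At 56 days it was 0.42 (adjusted p = 0.0424), with control arrays from 12917 to 14757 and mdx arrays from 15488 to 23194. Although the arrays of 94831_at were apart at every age from 14 days on, the differences at 14, 23 and 28 days were 0.11, 0.27 and 0.39 and none passed.

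The 56-day value of Ctsb depended on the scaling, at 0.85 (adjusted p = 0.000105) after quantile normalization. The median of all tested probe sets at that age moved the other way, from 0.15 to 0.00. Why the Ctsb value grew was not tested. With the values as deposited the call lay near the threshold. It was lost without any 1 of control replicates 1, 2 or 3 (adjusted p = 0.112, 0.0559 and 0.105) or mdx replicates 1 or 2 (0.0563 and 0.268, where the difference was 0.47 and 0.25). The probe sets 92256_at, 95608_at and 162271_f_at were called at no age. At 112 days their log2 differences were 0.51, 0.21 and -0.49. The last was dim, between 48.7 and 844, and did not follow the others across the 36 arrays (Pearson r from -0.26 to -0.07), whereas the other three correlated with each other at 0.60 to 0.76. These correlations describe arrays that share groups and scaling.

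Cathepsin H, an aminopeptidase, rose from 23 days on. At 23 days control arrays read 2108, 2195 and 2374 and mdx arrays 4107, 3283 and 3552, a log2 difference of 0.70 ± 0.18 (SE, adjusted p = 0.0194). It was 0.81 at 28 days (adjusted p = 0.00517), 0.71 at 56 days (0.00545) and 0.93 at 112 days (0.000405). The mdx arrays were above the controls at all 4 ages and highest at 28 days, at 4457, 4115 and 5167. After quantile normalization the adjusted p at 23 days was 0.0952, and leaving out control replicate 1, control replicate 2 or mdx replicate 1 of that age gave 0.0915, 0.0691 and 0.162. Leaving out control replicate 2 or mdx replicate 3 at 28 days gave 0.0517 and 0.0615, so neither call held in every fit.

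Cathepsin C, the dipeptidyl peptidase that activates serine proteases of granulocytes, mast cells and cytotoxic lymphocytes, rose at the same age. On 101019_at, control arrays read 525, 588 and 902 at 23 days and mdx arrays 1651, 1551 and 1386. At 112 days the arrays read 966, 692 and 1373 in control and 2977, 2577 and 1929 in mdx. The genotypes did not overlap at either age. The log2 difference was 1.18 at 23 and at 28 days (adjusted p = 0.00104 and 0.00102), 1.24 at 56 days (0.000188) and 1.31 at 112 days (0.000101), with an SE of 0.22. The probe set 101020_at, at 0.89 and 0.70 at 23 and 28 days (adjusted p = 0.117 and 0.302), was called at 56 days (1.03, adjusted p = 0.0173) and 112 days (1.08, 0.0142). Leaving out control replicate 1 or mdx replicate 1 of 56 days ended the first of these calls of 101020_at (0.78 and 0.95, adjusted p = 0.128 and 0.0741), and leaving out control replicate 2 of 112 days ended the second (0.90, 0.088). Both calls of 101020_at were also lost without the albumin-rich arrays, where the log2 differences were 0.78 at 56 days and 1.00 at 112 days. The 112-day call was lost with the actin ratio as a covariate as well (0.98, adjusted p = 0.0588). The dim 161251_f_at was called at no age.

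Cathepsin Z, a carboxypeptidase, rose at 28 days. Control arrays read 1058, 1528 and 1186 and mdx arrays 3639, 3227 and 4052, 3 arrays well clear of the controls, with a log2 difference of 1.52 ± 0.24 (SE, adjusted p = 7.79e-05). At 23 days mdx arrays read 3679, 2472 and 1337 against 1745, 1307 and 1160 in control. One mdx array lay among the controls there, and the difference of 0.72 did not pass (adjusted p = 0.0964). Without that array, mdx replicate 3, it was 1.11 (adjusted p = 0.00135), and without mdx replicate 1, the highest, it was 0.39 (0.735). The difference was 1.04 at 56 days (adjusted p = 0.00253) and 1.16 at 112 days (0.000911). The 112-day call was lost without the albumin-rich arrays (1.02, adjusted p = 0.139).

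Cathepsin K, the collagen-cleaving protease known from osteoclasts and also made by fibroblasts, had a different course. At 7 days control arrays read 2263, 4834 and 4658 and mdx arrays 1430, 2274 and 2132. The lower signal of mdx at 7 days, with a mean 0.496 times that of control, did not pass (log2 difference -0.95 ± 0.24 SE, adjusted p = 0.0668). It passed without control 7-day replicate 1 (-1.30, adjusted p = 0.00426) and without mdx 56-day replicate 3 (-0.95, 0.0417), and was -0.74 (0.548) without mdx 7-day replicate 1. At 7 days the 3′ to 5′ ratio of the Gapdh control probe sets, a sign of RNA or label quality, was 0.0357 to 0.147 in control and 0.32 to 0.83 in mdx, with no overlap, and its part in this value was not tested. At 14 days mdx arrays read 1034, 1181 and 1431 against 1716, 1456 and 1479 in control. Here all mdx arrays were below all controls, although the difference of -0.35 did not pass (adjusted p = 0.907). At 23 days the genotypes overlapped. At 28 days control arrays read 1608, 1398 and 1810 and mdx arrays 2565, 2248 and 2790, all above the controls. The 28-day difference of 0.65 did not pass in the fit on all arrays. Fitted on the 6 arrays of that age alone it passed (adjusted p = 0.0496). At 56 days control arrays read 676, 708 and 971 and mdx arrays 2434, 2394 and 1386. At 112 days they read 837, 1025 and 784 against 2144, 2411 and 2688. At both of these ages mdx was higher with no overlap, at 2.64 and 2.74 times the control mean, with log2 differences of 1.34 (adjusted p = 0.000179) and 1.42 (7.7e-05).

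Ctsk fell with age in control diaphragm, and in mdx diaphragm no change between the first and last age passed the test. In control, 112 days against 7 days was -2.04 in log2 (adjusted p = 5.66e-08). In mdx the same comparison, added after the data were seen, gave 0.33 (adjusted p = 0.377). The Gapdh ratio of the control arrays was 0.0357 to 0.147 at 7 days and 0.518 to 0.93 at 112 days. Its part in the fall of Ctsk in control was not tested. The genotype difference changed by 2.37 ± 0.34 (SE) from 7 to 112 days (adjusted p = 1.23e-05). In the order of the 12 group means, control at 7 days was the highest and control at 56 and 112 days the lowest. The step from control at 112 days to mdx at 14 days was the only one of 11 without overlap.

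The promoter table held 6 of the 10 genes, Ctsc, Ctsd, Ctsk, Ctsl, Ctss and Ctsz. In the RefSeq annotation of build GRCm38.p6, Ctsk and Ctss neighbour each other on chromosome 3 with only the non-coding RNA gene Gm40096 between them, yet their transcripts followed different courses (r = 0.23 over the 36 arrays). The 250 bases before the start of each are printed with those of Ctsd, the gene without a rise. Capitals mark GAGGAA or its reverse complement, the core bound by ETS factors such as PU.1 of macrophages, in Ctss and Ctsk. In Ctsd they mark CACGTG, the core of the element bound by TFEB at many lysosomal genes, and the longer TCACGTGA around its second copy. The sequences are read on the gene's strand from chr3:95526536-95526785 (plus strand, Ctss), chr3:95498960-95499209 (plus strand, Ctsk) and chr7:142387828-142388077 (minus strand, Ctsd).
Ctss: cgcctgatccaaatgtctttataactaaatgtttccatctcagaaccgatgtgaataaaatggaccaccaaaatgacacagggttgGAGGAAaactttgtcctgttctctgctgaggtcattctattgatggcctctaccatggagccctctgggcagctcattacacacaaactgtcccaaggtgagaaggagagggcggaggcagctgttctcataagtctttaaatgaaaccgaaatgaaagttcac
Ctsk: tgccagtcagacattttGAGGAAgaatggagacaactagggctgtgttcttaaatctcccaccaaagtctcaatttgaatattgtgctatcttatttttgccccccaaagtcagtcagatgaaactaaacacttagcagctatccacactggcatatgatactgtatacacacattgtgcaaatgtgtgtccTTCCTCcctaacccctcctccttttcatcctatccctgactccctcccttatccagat
Ctsd: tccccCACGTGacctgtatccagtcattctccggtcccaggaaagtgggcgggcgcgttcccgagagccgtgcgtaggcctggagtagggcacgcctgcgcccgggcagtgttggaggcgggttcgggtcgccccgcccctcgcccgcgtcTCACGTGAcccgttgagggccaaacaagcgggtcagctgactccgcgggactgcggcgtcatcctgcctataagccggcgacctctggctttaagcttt

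Both strands of the 300 bases from 250 before to 50 after the start were searched. GAGGAA was in Ctss, Ctsk and Ctsc and in 28.28% of all 32851 promoters. CACGTG was in Ctsd and Ctsl and in 7.15% of all, and the longer TCACGTGA, which contains it, was in Ctsd and in 0.97%. The AP-1 motif TGAGTCA was in 0 of the 6 and in 5.2% of all. In Ctss the match printed begins at base -164, and in Ctsk the matches begin at -233 and -58. In Ctsd the marked stretches begin at -245 and -99. A match describes these letters only. The 250 bases were 67.2% G or C in Ctsd, 44.8% in Ctss and 43.2% in Ctsk, where the median of all promoters was 52.4%.

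Cathepsin D, the main aspartic protease of lysosomes, was called at no age. At 7 days control arrays read 11784, 14345 and 15963 and mdx arrays 14513, 13567 and 17078. At 112 days control arrays read 22214, 10390 and 19386, and mdx arrays 21482, 23489 and 20543. The genotypes overlapped at both ages, with log2 differences of 0.11 and 0.40 (adjusted p = 0.934 and 0.505). At 56 days control arrays read 19843, 30015 and 20103 and mdx arrays 5650, 24780 and 14988. This was the widest spread of the gene, and the difference of -0.84 ± 0.34 (SE) did not pass (adjusted p = 0.09). Single arrays set its size: without mdx 56-day replicate 2 it was -1.31 and passed as lower (adjusted p = 0.00793), and without mdx 56-day replicate 1 it was -0.25 (0.632). On mdx 56-day replicate 1 the highest signal of any probe set was 23858, the lowest of the 36 arrays (median 47550). On mdx 28-day replicate 2, where Ctsd read 8881, it was 28077. The part of such a low upper end in the Ctsd values was not tested. The mean over ages was -0.03 ± 0.14 (SE, adjusted p = 0.932). With an SE of 0.34 at each age, the largest among the members' brightest probe sets other than Napsa, small differences of Ctsd were not detectable at this precision.

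Napsin A, an aspartic protease best known from lung and kidney, was dim and rose at 23 and 28 days. At 23 days control arrays read 43.9, 84.4 and 51.6 and mdx arrays 1250.0, 898 and 371. At 28 days they read 56.1, 77.2 and 79.9 against 252, 404 and 523. No mdx array overlapped the controls at either age, and the log2 differences were 3.12 ± 0.41 (adjusted p = 6.8e-06) and 2.00 ± 0.41 (adjusted p = 0.00269). At 56 days the arrays read 53.0, 176 and 74.5 in control and 78.7, 111 and 79.0 in mdx, which overlapped (-0.03, adjusted p = 0.965). At 112 days mdx arrays read 241, 153 and 332 against 108, 92.9 and 98.4, apart again, with a difference of 1.01 that did not pass (adjusted p = 0.113). Apart from 4 arrays of mdx at 23 and 28 days, every Napsa value lay below 374.5, the signal that the filter on low values used. Napsa was thus tested only through the groups where it was high, and its calls are no independent support. With no filter, over 12422 probe sets, the adjusted p was 1.13e-06 at 23 days and 0.00118 at 28 days. Control signals this dim leave the size of the differences uncertain.

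The Napsa difference grew by 3.34 ± 0.58 (SE) between 14 and 23 days (adjusted p = 0.00366). Napsa was the only member called in that interval, against 0.28% of all probe sets that grew. Since mdx arrays at 23 days helped it pass the filter, this call and its hold across fits are no independent support. The call held in all 36 fits without 1 array, with a highest adjusted p of 0.0303 without mdx 23-day replicate 1, but was lost without the albumin-rich arrays, where the value was 3.56 (adjusted p = 0.0687). From 28 to 56 days the difference changed by -2.03, which did not pass (adjusted p = 0.138). Of the probe sets whose difference changed in that interval (0.0861% of all tested), none was a member. The same held from 23 to 28 days (0% of all, with 367 at an unadjusted p under 0.05, 1 of them a member), from 56 to 112 days (0.0969%) and from 28 to 112 days (0.129%).

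Cystatin B, a cytosolic inhibitor of cysteine cathepsins that limits damage from leaked enzyme, rose along with the proteases. At 23 days control arrays read 4222, 4583 and 4242 and mdx arrays 12545, 9012 and 6756. At 112 days they read 4881, 4771 and 4859 against 10122, 10305 and 10553. The genotypes did not overlap at either age, and the mdx arrays lay wide apart at 23 days and close together at 112 days. With an SE of 0.15, the log2 difference of Cstb at 23, 28, 56 and 112 days was 1.07, 0.96, 1.23 and 1.09 (adjusted p = 2.15e-05, 8.85e-05, 8.76e-07 and 4.95e-06). At 7 and 14 days it was -0.02 and 0.17 (adjusted p = 0.978 and 0.966). Its growth by 0.90 between 14 and 23 days did not pass (adjusted p = 0.0527), but passed in 6 of the 36 fits without 1 array (adjusted p = 0.0023 without mdx 23-day replicate 3).

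From 7 to 112 days, a comparison added after the data were seen, the genotype difference grew for 10 of 15 probe sets, against 6.21% of all. The Gapdh ratio, apart between the genotypes at 7 days, was 0.518 to 0.93 in control and 0.532 to 0.665 in mdx at 112 days, and its part was not tested. After Ctss (2.73) and Ctsk (2.37) came both brighter Ctsc probe sets (1.66 and 1.51), Ctsz (1.20), Cstb (1.11), Ctsh (1.07), Ctsb (0.92 on 94831_at and 0.79 on 92256_at) and Ctsl (0.76). In mdx diaphragm 11 of 15 were higher at 112 than at 7 days, against 8.22% of all. In control diaphragm 3 were higher, against 21.4%, namely Ctss (0.60, adjusted p = 0.0214) and the Ctsb probe sets 92256_at and 95608_at (0.77 for each, adjusted p = 0.00128 and 0.00649). Only Ctsk was lower there, against 20.3%. The 6 control means differed for 9 of 15, against 62.2% of all. The labels do not say whether all ages were hybridised together.

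**Figure D3:**
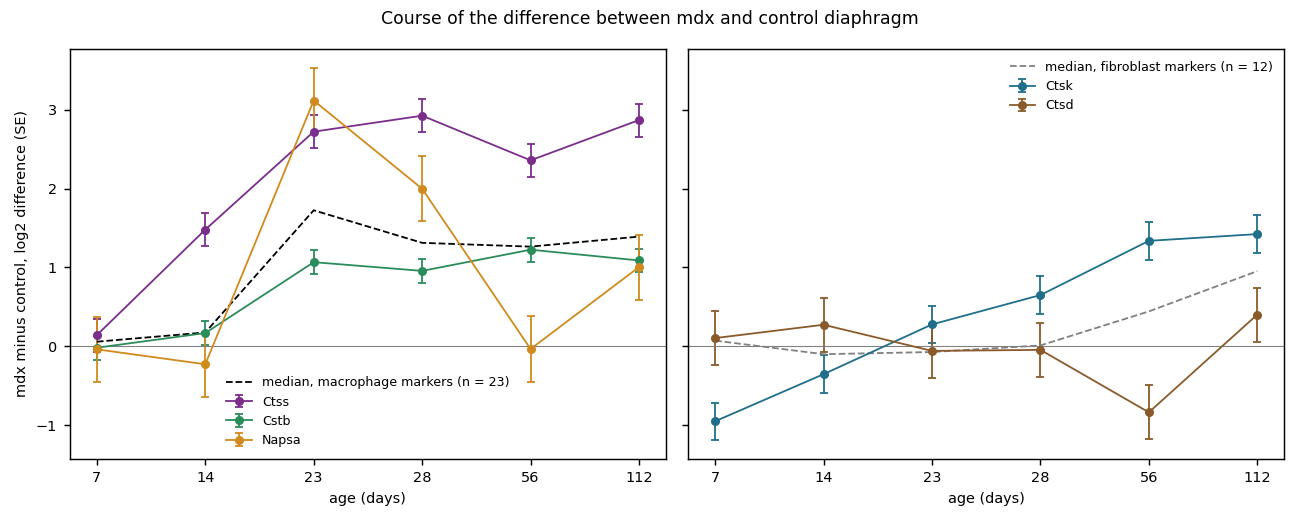
Log2 difference between mdx and control at 6 ages, with SE bars, for Ctss, Cstb and Napsa beside the median of 23 macrophage marker genes (left) and for Ctsk and Ctsd beside the median of 12 fibroblast marker genes (right). Ctss is at 1.48 at 14 days where the macrophage median is 0.18, and Ctsk goes from -0.95 to 1.42 while the fibroblast median goes from 0.07 to 0.95.

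Macrophage markers also differed between the genotypes. Of 23 macrophage markers tested, 0, 1, 19, 14, 15 and 17 were higher in mdx from 7 to 112 days, with a median log2 difference of 0.06, 0.18, 1.72, 1.31, 1.26 and 1.39. The one marker called at 14 days was Lgals3, the lectin galectin-3 (1.67, adjusted p = 0.0145). Their summed signal at 14 days was 27577 to 31911 in control and 31125 to 40389 in mdx, which overlapped, at an age when Ctss did not. It was 21636 to 25451 in control and 57778 to 109044 in mdx at 23 days, and 29406 to 30980 against 91128 to 94169 at 112 days. The highest sum at 23 days was that of mdx replicate 1 and at 28 days that of mdx replicate 3 (113059), the arrays on which Ctss and Cstb were highest at those ages. No value in the table was 0, and the part of macrophage RNA in the members' rise was not tested.

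Of 12 fibroblast markers, 0, 0, 1, 1, 5 and 7 were higher from 7 to 112 days. Their summed signal in control ran from 166674 to 188119 at 7 days and from 81266 to 97024 at 112 days. In mdx it ran from 187359 to 226046 and from 156506 to 181887, so the genotypes overlapped at 7 days and not at 112 days. The summed signal of 9 markers of regenerating muscle ran in control from 44141 to 50925 at 7 days and from 3957 to 5265 at 112 days. In mdx it ran from 25124 to 47450 and from 48168 to 60662. The part of either list in the course of Ctsk was not tested. Actin control probe sets near the 3′ and the 5′ end give a ratio that is a sign of RNA or label quality, and it was 0.862 to 0.944 in control and 0.448 to 0.879 in mdx at 23 days. At 112 days it was 0.53 to 1.68 against 0.193 to 0.937. With that ratio as a covariate, added after the data were seen, 5, 6, 8 and 8 members were higher from 23 to 112 days. Of all 9291 tested probe sets, 282, 212, 1411 and 952 were then called in either direction, in place of 318, 275, 1547 and 1140.

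For the mean over ages, the brightest probe sets of the 10 members had a median log2 difference of 0.64, beside 0.03 for all tested. Of all 9291 tested probe sets 10.4% rose in that mean, and 1662 were called in either direction. The other lysosomal genes gave these counts. Of 22 other lysosomal hydrolases 8 rose and 1 fell, with a median of 0.14. Those that rose included lysozyme Lyz2 (1.29), also on the macrophage list, β-glucuronidase Gusb (0.58), hexosaminidase Hexa (0.50), β-galactosidase Glb1 (0.43) and α-mannosidase Man2b1 (0.24), while the sphingomyelinase Smpd1 fell by 0.19. Of 23 genes of the lysosomal membrane and its acidification 9 rose, 0 fell and the median was 0.14. They included Cd68 (1.13) and Laptm5 (0.70), both on the macrophage list too, the metal transporter Slc11a1 (0.97), Cd63 (0.58), the cholesterol carrier Npc2 (0.42) and Atp6ap2 (0.34). Of 11 genes for delivery to lysosomes and its transcription factors, 3 rose, the mannose 6-phosphate receptor Igf2r (0.25), the adaptor Gga2 (0.49) and Spi1 (0.62), which encodes PU.1.

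**Figure D4:**
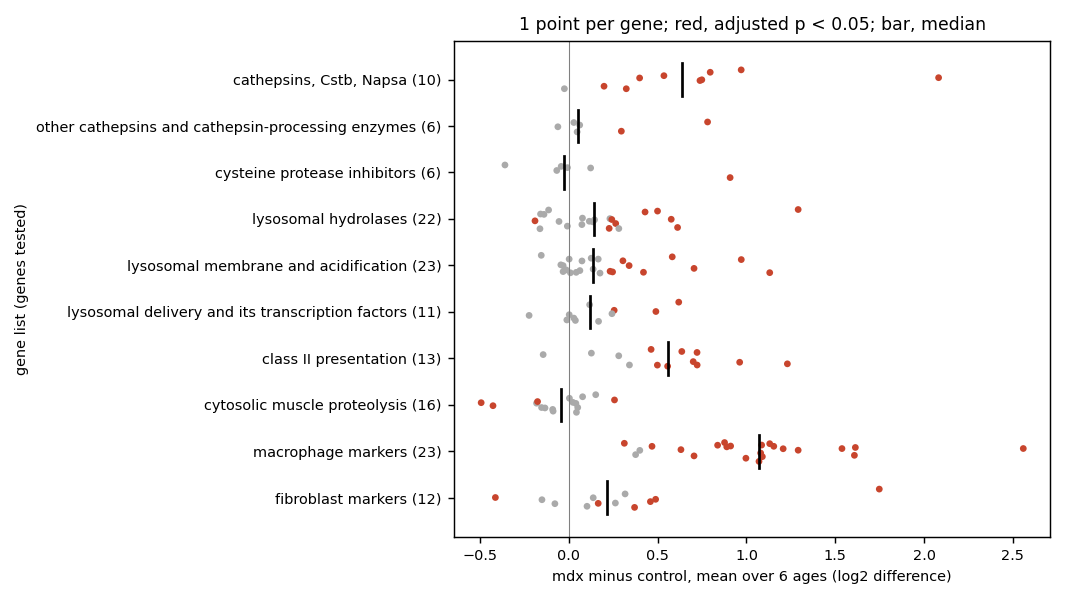
Mean log2 difference between mdx and control over 6 ages, 1 point per gene in 10 lists, red where the adjusted p was under 0.05, with a bar at each median. The members' median of 0.64 lies between those of the lysosomal hydrolases (0.14) and of the macrophage markers (1.07).

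Enzymes that act beside the members were measured as well, again for the mean over ages unless an age is named. In that mean 10.4% of all 9291 tested probe sets rose, and 1662 were called in either direction. Of 6 other cathepsins and cathepsin-processing enzymes, 2 rose, the asparaginyl endopeptidase Lgmn (0.78), which matures several cathepsins, and Ctsa (0.30). Of 6 other genes listed as protease inhibitors, 1 rose, Serpinb6a (0.91, adjusted p = 6.48e-10), which is an intracellular serpin and not a cystatin. Of 13 class II presentation genes 9 rose, among them the invariant chain Cd74 (0.72), the thiol reductase Ifi30 (0.96), H2-Aa (1.23), H2-Eb1 (0.64), H2-DMa (0.50) and H2-Ab1 (0.72). At 14 days, when Ctss rose, H2-Aa (3.09, adjusted p = 0.000299) and Cd74 (0.93, adjusted p = 0.0416) were the only 2 of the 13 that did. Of 10 genes for proteins that these proteases cut outside the lysosome, 2 rose, Col1a2 (0.49) and Sparc (0.26). Of 16 genes of cytosolic muscle proteolysis 1 rose, Capn2 (0.26), and 3 fell, Ube2b by 0.43, Bnip3 by 0.49 and Sqstm1 by 0.18.

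Lists of further cell types gave these counts for the mean over ages, in which 10.4% of all 9291 tested probe sets rose and 1662 were called in either direction. All 9 markers of regenerating muscle rose, with a median of 2.19 and Myl4, an embryonic myosin light chain, at 3.68. Of 23 macrophage markers 21 rose, with Lgals3 at 2.56. Of 12 fibroblast markers 5 rose, among them Postn (1.75), and 1 fell, Thy1 by 0.41. Of 11 B cell and dendritic cell markers 5 rose, among them Cd83 (1.03) and Itgax (0.77). Of 8 neutrophil and mast cell markers 0 changed by limma, and 0 had an unadjusted p under 0.05, although S100a8 rose at 23 days (2.33, adjusted p = 0.021). Of 7 endothelial markers 3 fell, among them Vwf by 0.32, of 5 mesothelial markers 2 fell, of 12 muscle fibre markers 2 fell, and of 7 liver markers 0 changed, with 0 at an unadjusted p under 0.05.

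The 3 genes most like each member that rose were found by Pearson correlation of log2 values over the 36 arrays, which share groups, ages and scaling. For Ctss they were Lgals3 (0.97), S100a4 (0.97) and Lyz2 (0.96). For Cstb they were Tyrobp (0.93), a signalling adaptor of myeloid cells, Lgals3 (0.92) and Tnnt2 (0.92), a troponin of immature muscle. For Ctsh they were C1qb (0.93), S100a13 (0.85) and C1qa (0.85), and for Ctsb C1qa (0.88), C1qb (0.88) and Ifi204 (0.87), where C1qa and C1qb encode complement C1q. For Ctsc they were S100a4 (0.90), C1qa (0.89) and Evi2a (0.89), and for Ctsl Ifi204 (0.88), Cd74 (0.88) and H2-Ab1 (0.87). For Ctsz they were Tubb6 (0.87), Csf1r (0.86), the receptor of the macrophage growth factor, and Tubb3 (0.84). For Napsa they were Fcgr1 (0.87), Adam8 (0.85) and Cd52 (0.84). For Ctsk they were Tubb5 (0.85), Nes (0.84) and Atpif1 (0.84). Among the members, Ctss and Ctsc (0.87) and Ctss and Cstb (0.86) were closest, and Ctsd reached at most 0.36 with any other.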

How the data were processed

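The table deposited by the authors holds linear probe set intensity for each array, made by the maker's standard protocol per the labels. The labels do not name the program that made it. With the lowest and highest 2% left out, array means were 1499.2 to 1499.7, so the arrays had been scaled to 1 level and were taken unchanged. Array medians were 451 to 723 and the highest signal of an array was 23858 to 92204, so the upper end was not alike. The number of arrays limits the precision.

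Gene symbols came from the platform annotation, in which 10833 probe sets had 1 symbol, 396 several and 1193 none. Of 12488 probe sets, 66 controls were left out. A probe set was tested if its signal passed percentile 40 of the table (374.5) on 3 arrays or more, which left 9291. limma 3.58.1 in R 4.3.3 fitted 12 group means to log2(value + 32) over 36 arrays (24 residual degrees of freedom, eBayes with trend and robust). A log2 difference on this scale understates the change of dim genes. Benjamini-Hochberg adjustment ran within each comparison, at 0.05. On simulated data for 28 days, log2 changes of 0.5, 1, 2 and 3 were called in 4%, 54%, 80% and 100% of cases, and 4.8% of calls were false. Noise there was independent between probe sets, each with the same spread on every array. Estimated weights of the real arrays ran from 0.27 to 3.94, so these percentages need not hold for them.

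The members and gene lists were chosen with earlier results of these data known. All members are named. From each list at most 6 genes called in the mean over ages are named, through the brightest probe set of a gene, plus those named at 1 age. Alternatives varied the pseudocount (8 and 128), the filter, the normalization, array weights, the variance model, the replicate block, the arrays used and a covariate.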

Additional observations from a re-analysis of the deposited data

Results flagged for a closer look

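The tests of age dependence picked out members whose difference between mdx and control was not the same at all ages. The F test over the 6 ages gave an adjusted p of 9.5e-08 for Ctss, 2.2e-05 for Ctsk, 0.000156 for Cstb, 0.000438 for Napsa and 0.000749 for Ctsc (101019_at). It gave 0.00538 for Ctsz, 0.0198 for Ctsh and 0.0346 for Ctsb (94831_at). Between 7 and 112 days, the difference grew on the log2 scale by 2.73 for Ctss, 2.37 for Ctsk, 1.66 for Ctsc (101019_at) and 1.51 for Ctsc (101020_at). It grew by 1.20 for Ctsz, 1.11 for Cstb, 1.07 for Ctsh, 0.92 for Ctsb (94831_at), 0.79 for Ctsb (92256_at, adjusted p = 0.048) and 0.76 for Ctsl. Over shorter intervals, it grew by 1.34 between 7 and 14 days for Ctss and by 3.34 between 14 and 23 days for Napsa. Napsa passed the filter only through mdx arrays at 23 and 28 days, so its F test and interval values are no independent support. With 3 arrays in each group, single arrays were not screened by a gap test; the effect of leaving each out is given with the results.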

How the results depend on the processing

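Across the alternatives and the fits without 1 array, 4771 values of single members stayed on the same side of the threshold, 25 lost a call, 26 gained one and 0 called values changed sign. A fit without an array of another age leaves the log2 difference at an age unchanged and can alter only its SE and adjusted p. Many of the 4771 values come from such fits or were uncalled from the start, so this count does not measure stability. Members called in the interval from 7 to 14 days went from 1 to 0 after quantile normalization, without a variance trend or robust prior, without the albumin-rich arrays and with the actin ratio. From 14 to 23 days they went from 1 to 2 with the larger pseudocount or a filter at percentile 60, where Napsa was not tested, to 3 with array weights and to 0 without the albumin-rich arrays. Array weights gave 9 members at 23 days in place of 5, and 1 in place of 0 from 28 to 56 days, which was lower. Without the albumin-rich arrays, fewer members and fewer of all probe sets were called by the F test and in the comparison of 112 with 7 days.

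Leaving out 1 array at a time gave 0 to 1 members at 7 days, 1 at 14 days, 4 to 7 at 23 days, 5 to 6 at 28 days, 6 to 8 at 56 days and 8 to 10 at 112 days. It gave 10 to 11 for the mean over ages, 6 to 9 for the F test, 0 to 1 from 7 to 14 days, 1 to 3 from 14 to 23 days, 0 to 1 from 56 to 112 days and 7 to 10 for 112 against 7 days. Over all probe sets, calls in either direction were 16 to 56, 7 to 24, 122 to 543, 145 to 303, 987 to 1766 and 890 to 1289 at the 6 ages. They were 1477 to 1756 for the mean over ages and 649 to 1040 for the F test. The cause of these changes was not tested. Over all probe sets, 318 calls at 23 days became 122 to 543 without 1 array, 206 on the 6 arrays of that age alone and 1278 with array weights. At 112 days 1140 became 363 on the 6 arrays alone.

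The replicate numbers did not pair arrays: of 18 same-numbered pairs 1 had deviations correlated above 0.1 (from -0.23 to 0.15), and 3 arrays correlated best with their own number. With a replicate block the members called were 0, 1, 5, 6, 7 and 9 at the 6 ages, where Ctsb lost its 56-day call (adjusted p = 0.0515). Of all 9291 tested probe sets, 39, 17, 307, 264, 1495 and 1085 were then called in either direction. Dim members such as Napsa rest on few arrays above the filter.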
